A study of Homo sapiens with 6 samples.

Results

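The genes described here are 10 regulators and outputs of the ATF4/CHOP axis of the integrated stress response: ATF4, DDIT3, ATF3, ATF5, CHAC1, TRIB3, SESN2, DDIT4, PPP1R15A and CEBPB. They were taken by symbol, and each was found once among the 19923 protein-coding genes of the count tables. All 10 passed the filter on low counts. All libraries came from Kelly cells, a MYCN-amplified neuroblastoma line labelled WT. Lipofection delivered either control siRNA, giving the siControl group of 3 libraries, or siRNA to METTL3, giving the siMETTL3 group of 3, and RNA was taken 72 hours later. The enzyme METTL3 deposits N6-methyladenosine (m6A) on mRNA. Poly(A) RNA was sequenced. Nothing in the labels says that the 3 libraries of a group came from separate cultures, so p-values measure the spread between these libraries, which may be technical.

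The integrated stress response starts when one of several kinases phosphorylates the alpha subunit of the translation initiation factor eIF2. General translation then drops, while the ATF4 mRNA is translated more because of short upstream open reading frames in its leader. ATF4 pairs with C/EBP proteins at composite sites called CARE and raises genes of amino acid supply, transcription factors such as CHOP (the product of DDIT3), and genes that feed back on the response. RNA levels were measured here, not translation or protein. In such bulk RNA, fewer cells expressing a gene and less RNA per cell cannot be told apart.

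Promoter stretches are shown first, because CARE is the sequence through which ATF4 is known to act. RefSeq promoter windows (GRCh38.p14, 250 bases before to 50 after a start) were found for all 10 members. The CARE core, spelled TGATGNAA, was searched on both strands. It occurred in 2.71% of 21271 windows, or in 3.64% of 15085 genes with a window. Among the members it occurred in 2, CHAC1 and ATF3. Of 27 genes with a window in a list of ATF4 targets of amino acid supply and stress, 10 held it. The palindromic cAMP response element, spelled TGACGTCA, occurred in 2.28% of windows and, among the members, in PPP1R15A. A match describes letters in this window and is not a site shown to be bound. The stretches that hold these letters are shown 5′ to 3′ on the strand of the gene, with capitals on the CARE core (in CHAC1 as its reverse complement) or, in PPP1R15A, on the palindrome. CHAC1 (chr15:40953251-40953280, plus strand) and ATF3 (chr1:212565157-212565326, plus strand) are the members with the largest falls, and PPP1R15A (chr19:48872352-48872381, plus strand) was not called. The stretches of CHAC1 and PPP1R15A lie before the RefSeq start and inside an exon of another GENCODE transcript of the gene.
CHAC1: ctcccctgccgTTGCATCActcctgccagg
ATF3: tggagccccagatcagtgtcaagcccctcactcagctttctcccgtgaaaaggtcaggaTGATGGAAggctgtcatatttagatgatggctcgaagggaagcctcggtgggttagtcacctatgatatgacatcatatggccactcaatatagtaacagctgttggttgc
PPP1R15A: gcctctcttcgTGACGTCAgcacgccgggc

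Beside these, 30-base stretches of 4 listed ATF4 targets show the same core in its commonly cited setting, asparagine and tRNA synthetase genes and an amino acid transporter gene. The stretches lie at chr7:97872458-97872487 (ASNS, minus strand), chr16:70289675-70289704 (AARS1, minus strand), chr7:30594834-30594863 (GARS1, plus strand) and chr19:46784893-46784922 (SLC1A5, minus strand), and the capitals mark the core or its reverse complement.
ASNS: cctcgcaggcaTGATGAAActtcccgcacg
AARS1: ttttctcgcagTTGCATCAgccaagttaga
GARS1: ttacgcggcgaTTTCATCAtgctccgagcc
SLC1A5: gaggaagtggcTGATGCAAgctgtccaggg

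The libraries held 15430000 to 21565013 counts. The targeted gene, METTL3, was at 53.5, 52.8 and 56.2 CPM (read counts normalised to the TMM-scaled library size) in siControl and at 32.99, 31.8 and 34.3 CPM in siMETTL3, or 61.0% of control (log2 fold change -0.71, SE 0.070, edgeR FDR 4.68e-06); its span overlaps that of TOX4. Markers of noradrenergic neuroblastoma were present in all libraries (HAND2 at 376 CPM or more and DBH at 914 CPM or more), and those of leukocytes, keratinocytes and hepatocytes (PTPRC, CD3E, KRT5, ALB) did not exceed 0.399 CPM of the total count. Of the other markers of non-neural cell types, DCN and PECAM1 reached 0.199 and 1.102 CPM, COL1A1 lay at 1.595 to 5.74 and EPCAM at 5.04 to 7.04 CPM. Between libraries of a group, the chi-square per degree of freedom over genes was 3.11 to 3.84 in siMETTL3 and 5.74 to 16.9 in siControl, where both of the larger siControl values involved replicate 3.

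Of the 10 members, 7 were lower in siMETTL3 and 0 were higher. The call is a false discovery rate (FDR) below 0.05 over all 15311 tested genes, by the quasi-likelihood test of edgeR. The count of higher members was also 0 with DESeq2, with limma-voom and at an unadjusted p under 0.05. Among all tested genes, 19.2% were lower and 18.6% higher by the same rule (37.8% in either direction). ATF4, DDIT3, ATF3, CHAC1, TRIB3, SESN2 and DDIT4 fell, and ATF5, PPP1R15A and CEBPB were not called. The 10 log2 fold changes ran from -1.80 to 0.04 with a median of -0.76, beside a median of -0.0021 for all tested genes. For the same 7 members every siMETTL3 library lay below every siControl library, a pattern that 25.1% of all tested genes showed (49.9% separated in either direction). The count of 7 was found in each of the 6 fits that left out 1 library, also without siControl replicate 3.

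**Figure D1:**
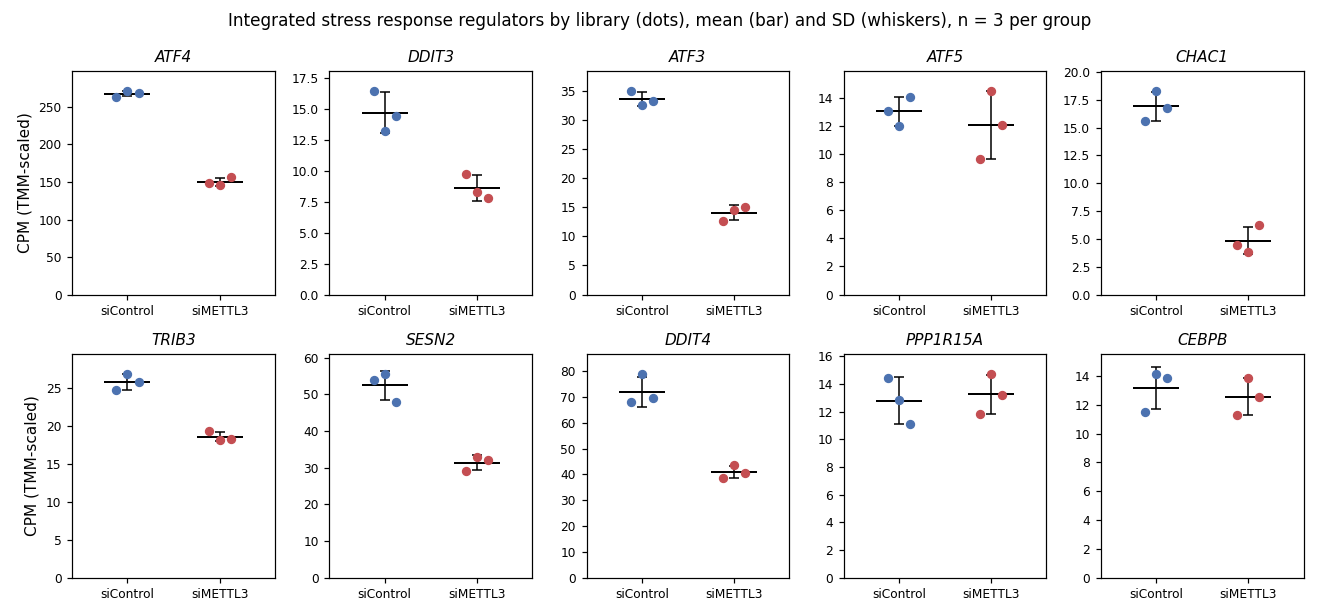
Normalised expression of the 10 members in each library, in CPM on linear axes that start at 0; dots are libraries, bars the mean and whiskers the SD of 3 libraries. The siControl and siMETTL3 dots are separate for 7 genes and overlap for ATF5, PPP1R15A and CEBPB.

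ATF4 (chromosome 22, 39519695 to 39522685, plus strand), the transcription factor at the centre of the axis, had 264, 271 and 269 CPM in the siControl libraries and 149, 146 and 156 CPM in the siMETTL3 libraries. The libraries of a group lay close together and the groups were far apart. ATF4 fell by 0.84 on the log2 scale, with a standard error (SE) of 0.054, to 56.0% of its siControl level (edgeR FDR 1.17e-07). It was the most abundant member per length. Relative to the union of its annotated exons, its level went from 102.5 ± 1.40 to 57.5 ± 2.02 CPM per kb (SD, n = 3).

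DDIT3 (chromosome 12, 57516588 to 57521737, minus strand) encodes CHOP, a C/EBP-related factor linked to cell death under lasting stress. Its levels were 16.5, 13.2 and 14.5 CPM in siControl and 9.77, 8.27 and 7.79 CPM in siMETTL3. All 3 siMETTL3 libraries were below all siControl libraries, at 58.4% of the control level (log2 fold change -0.78, SE 0.13, edgeR FDR 0.000406). The counted span of DDIT3 overlaps that of MARS1, which encodes methionyl-tRNA synthetase, by 982 bases, and the tables count a read for each gene that it overlaps. MARS1 itself fell from 224 ± 5.39 to 138 ± 6.72 CPM. Of the canonical MARS1 mRNA, 65 bases (2.32%) lie inside the DDIT3 span. With that share of the MARS1 count subtracted, as if its reads were spread evenly, DDIT3 was at 11.1, 8.06 and 9.36 CPM against 6.41, 5.05 and 4.72 CPM. The groups were still separate and the log2 fold change was -0.82 (edgeR FDR 0.00163). The unnamed gene AC022506.1, which shares 2769 bases with DDIT3, had a log2 fold change of -1.13. It had 172, 137 and 100 counts in siControl, and its part in the DDIT3 count was not tested. MBD6, which shares 1028 bases, had a log2 fold change of 0.15 (edgeR FDR 0.303).

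ATF3 (chromosome 1, 212565334 to 212620777, plus strand), a stress-inducible bZIP factor that is also an immediate early gene, was at 35.0, 32.6 and 33.3 CPM in siControl. In siMETTL3 it was at 12.6, 14.5 and 15.1 CPM. The highest siMETTL3 value was below the lowest siControl value by more than the whole range within either group. ATF3 fell by 1.26 on the log2 scale (SE 0.094, edgeR FDR 4.19e-07), to 41.8% of control, and ranked 53 among the falls of all tested genes. Introns make up most of its counted span, of which 7.2% is annotated exon, and the count can take in reads of unspliced RNA.

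CHAC1 (chromosome 15, 40952962 to 40956512, plus strand) encodes a gamma-glutamylcyclotransferase that degrades glutathione. It showed the largest fall of the members and ranked 14 among the falls of all tested genes. Its raw counts were 337, 365 and 253 in siControl and 92, 84 and 128 in siMETTL3, which corresponds to 15.6, 18.3 and 16.8 CPM against 4.47, 3.86 and 6.23 CPM. Of the control level, 28.7% remained (log2 fold change -1.80, SE 0.16, edgeR FDR 2.00e-06). The value ranged from -2.02 (without siMETTL3 replicate 3) to -1.66 (without siMETTL3 replicate 2) over the fits that omitted 1 library.

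TRIB3 (chromosome 20, 362835 to 397559, plus strand) encodes a pseudokinase that binds ATF4 and CHOP and restrains their activity. It was at 24.6, 26.7 and 25.7 CPM in siControl and at 19.3, 18.1 and 18.3 CPM in siMETTL3. The groups did not overlap, and the fall was the smallest of the 7 that passed, to 72.3% of control (log2 fold change -0.47, SE 0.087, edgeR FDR 0.000851).

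SESN2 and DDIT4 encode stress-induced inhibitors of mTORC1, the kinase complex that couples nutrients to growth: sestrin 2 acts on the GATOR2 complex, and DDIT4 (REDD1) through the TSC complex. SESN2 (chromosome 1, 28259518 to 28282491, plus strand) was at 53.9, 55.5 and 48.0 CPM in siControl and at 29.0, 32.98 and 32.2 CPM in siMETTL3, a fall to 59.8% (log2 fold change -0.74, SE 0.081, edgeR FDR 1.17e-05). DDIT4 (chromosome 10, 72273924 to 72276036, plus strand) was at 67.9, 78.7 and 69.4 CPM in siControl and at 38.8, 43.5 and 40.6 CPM in siMETTL3, a fall to 56.9% (log2 fold change -0.81, SE 0.075, edgeR FDR 3.03e-06). For both genes the groups were well apart. Because introns were counted, the fit was repeated with an offset that removes, in each library, the trend of all genes with intron length. With this offset for intron length, the DDIT4 change was -0.55 and still past the threshold (edgeR FDR 3.28e-05). The ATF4 change moved from -0.84 to -0.66 under the same offset (edgeR FDR 6.35e-07).

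The remaining members, ATF5, PPP1R15A and CEBPB, did not differ beyond the spread between libraries. ATF5 (chromosome 19, 49928702 to 49933935, plus strand), the closest relative of ATF4 by its bZIP domain, was at 13.1, 12.01 and 14.1 CPM in siControl and at 9.67, 14.5 and 12.1 CPM in siMETTL3. The siMETTL3 libraries enclosed the siControl range. Its log2 fold change was -0.11 with a 95% interval from -0.41 to 0.20 (edgeR FDR 0.591). The ATF5 span shares 1062 bases with NUP62, a nuclear pore gene at 114 ± 17.1 CPM in siControl and 138 ± 5.19 CPM in siMETTL3, and 179 bases (5.33%) of the canonical NUP62 mRNA lie inside it. With that share of the NUP62 count subtracted, ATF5 was at 6.03, 6.21 and 8.76 CPM in siControl and at 2.28, 6.84 and 5.02 CPM in siMETTL3. The log2 fold change was then -0.55, the groups still overlapped, and the gene was still not called (edgeR FDR 0.233). The whole ATF5 span also lies inside AC011452.2, which rose from 58.4 ± 11.2 to 83.2 ± 3.37 CPM (edgeR FDR 0.00483), and its part in the ATF5 count was not tested. IL4I1, which shares 838 bases with ATF5 and none of whose canonical exons lie in it, had a log2 fold change of 0.28 (edgeR FDR 0.0261). Its counts were nearly those of NUP62: 2870, 2189 and 1506 beside 2861, 2185 and 1497 in siControl, and 2862, 3124 and 2730 beside 2849, 3110 and 2721 in siMETTL3. The rows of IL4I1 and NUP62 are therefore not separate observations. Neither gene was past the threshold in 4 of the 6 fits that left out 1 library, with the highest FDR without siControl replicate 2 (0.106 and 0.107).

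PPP1R15A (chromosome 19, 48872421 to 48876058, plus strand) encodes GADD34, which brings protein phosphatase 1 to eIF2 and so ends the response. Its levels were 14.5, 12.9 and 11.1 CPM in siControl and 11.9, 14.7 and 13.2 CPM in siMETTL3. The values of the groups were interleaved. Its log2 fold change was 0.04 with a 95% interval from -0.23 to 0.31 (edgeR FDR 0.825). CEBPB (chromosome 20, 50190830 to 50192668, plus strand), a C/EBP factor that dimerises with ATF4 and CHOP, was at 11.5, 14.1 and 13.9 CPM in siControl and at 11.3, 13.8 and 12.6 CPM in siMETTL3. These values overlapped as well, with a log2 fold change of -0.06 and a 95% interval from -0.32 to 0.20 (edgeR FDR 0.735). A p above the threshold does not show that these genes were unaltered: the intervals leave room for changes up to their bounds. Under the intron length offset, CEBPB was at 0.21 (edgeR FDR 0.164) and PPP1R15A at 0.21 (edgeR FDR 0.221).

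**Figure D2:**
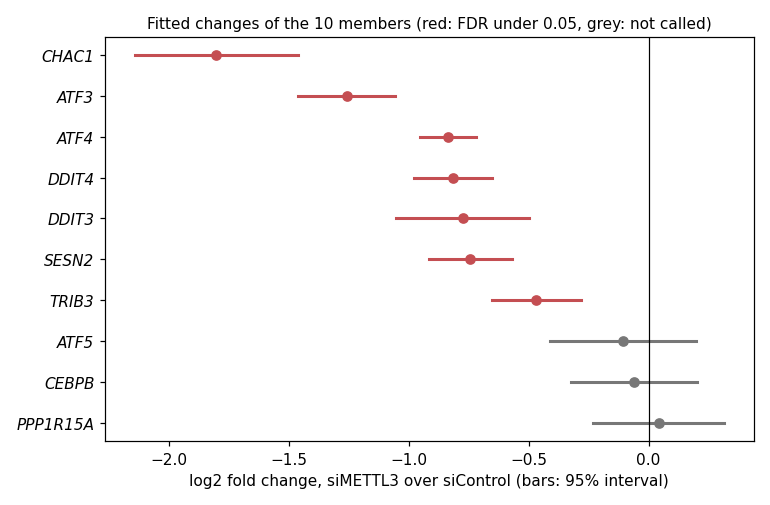
Fitted log2 fold change of each member (dots) with its 95% interval (bars), on a horizontal axis of siMETTL3 over siControl. The intervals of 7 genes lie below 0, from CHAC1 at -1.80 to TRIB3 at -0.47, and those of ATF5, PPP1R15A and CEBPB span 0.

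The fitted changes of the members differed in size. Ratios of raw counts within a library, which need no scaling, describe how the members stood relative to ATF4. The log2 ratio of CHAC1 to ATF4 was -4.08, -3.89 and -4.00 in siControl and -5.06, -5.24 and -4.65 in siMETTL3. The groups were separate, with CHAC1 lower relative to ATF4 by a mean of -0.99. The ratio of ATF3 to ATF4 also differed without overlap (-0.43). TRIB3, ATF5, PPP1R15A and CEBPB were each higher relative to ATF4 in every siMETTL3 library than in any siControl library (0.37, 0.71, 0.89 and 0.77). The raw ATF5 count can hold reads of NUP62. With the NUP62 share subtracted as above, ATF5 was at 6.03, 6.21 and 8.76 CPM in siControl and at 2.28, 6.84 and 5.02 CPM in siMETTL3. Its log2 fold change was then -0.55, beside -0.84 for ATF4. ATF4 itself was at 264 CPM in siControl replicate 1 and at 149 CPM in siMETTL3 replicate 1. Relative to ATF4, the subtracted ATF5 level was thus lower in siMETTL3 replicate 1 than in siControl replicate 1. In siMETTL3 replicate 2 it was higher than in any siControl library. The groups then overlapped, and the separation of this ratio holds only for the raw counts. The ratios of DDIT3, SESN2 and DDIT4 to ATF4 overlapped between the groups, with differences of 0.06, 0.10 and 0.02. In all, 17 ratios were compared. An exact two-sided permutation test of 3 against 3 libraries cannot go below p = 0.10, which was the value of each ratio named as separate (0.142 after Benjamini-Hochberg adjustment over the 17), so no ratio could pass 0.05.

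Set side by side per length of annotated exon, the siControl levels fell in the order ATF4, DDIT4, SESN2, DDIT3, ATF3, CHAC1, TRIB3, CEBPB, ATF5 and PPP1R15A. DDIT4 was at 34.0 ± 2.76, SESN2 at 15.2 ± 1.14 and DDIT3 at 11.3 ± 1.25 CPM per kb. The neighbours ATF3 (8.41 ± 0.311), CHAC1 (8.24 ± 0.646), TRIB3 (7.80 ± 0.320) and CEBPB (7.16 ± 0.786) were not separated from one to the next beyond their SDs. In siMETTL3 the order of the leading members, ATF4, DDIT4 (19.3 ± 1.14) and SESN2 (9.07 ± 0.607), was the same. CHAC1 went from the sixth place to the last, at 2.37 ± 0.601 CPM per kb, and ATF3 to the ninth, at 3.52 ± 0.329. CEBPB (6.84 ± 0.681) and DDIT3 (6.59 ± 0.789) followed SESN2 and were not separated beyond their SDs. These places depend on the overlapping genes. With the shares of MARS1 and NUP62 subtracted as above, DDIT3 was at 7.28 ± 1.18 CPM per kb in siControl, in the seventh place after TRIB3, and ATF5 at 2.42 ± 0.529, in the last. CHAC1 then went from the fifth place to the ninth, ahead of ATF5. Counts include intron reads, so the levels of genes with long introns are overstated on this scale. Per length of the whole counted span, ATF3 was the lowest member in siControl, at 0.607 ± 0.0224 CPM per kb.

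The mRNAs of the members were compared in the canonical transcripts of GENCODE release 44. An upstream ATG lay in the 5′ UTR of 6 of the 10, in ATF4 and DDIT3 with 3 each, ATF5, TRIB3 and PPP1R15A with 2 each and SESN2 with 1, beside 43.1% of 14591 tested genes. At least 2 were found in 5 members, beside 23.3% of tested genes. The members with an upstream ATG were found both among the 7 genes that fell (4) and among the 3 that were not called. The pentamer GGACT, the most common letters of m6A sites, occurred in the mRNA of 9 members, from 0.66 per kb in CHAC1 to 2.18 per kb in CEBPB, and was not in that of DDIT3. Among tested genes the median was 0.93 per kb, with quartiles of 0.56 and 1.39, and 8.71% had none. ATF4, with 0.70 per kb, lay between the lower quartile and the median. CEBPB, which was not called, had the most and DDIT3, which fell, had none. The letters do not show that an mRNA is methylated.

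Of the 10 genes listed as paralogs, 9 could be tested. Of these, 4 were lower (44.4%, beside 19.2% of all tested genes) and 1 was higher (11.1%, beside 18.6%). The median log2 fold change was -0.13. CHAC2, the constitutive relative of CHAC1, was at 8.44, 9.41 and 7.57 CPM in siControl and at 7.24, 7.21 and 9.40 CPM in siMETTL3, which overlap (log2 fold change -0.10, edgeR FDR 0.647). The log2 ratio of CHAC1 to CHAC2 was 0.89, 0.957 and 1.1501 in siControl and -0.70, -0.90 and -0.59 in siMETTL3, so that CHAC1 had more counts than CHAC2 in each siControl library and fewer in each siMETTL3 library. This was a difference of -1.73, with the same exact p of 0.10.

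Among the sestrins, SESN3, a target of FOXO factors, was the most abundant by CPM and fell from 169, 191 and 209 CPM to 87.1, 86.7 and 95.6 CPM, a log2 change of -1.08 (FDR 2.78e-07, edgeR). SESN1, a p53 target, fell less, from 33.8, 37.6 and 34.1 CPM to 28.4, 26.7 and 28.8 CPM, a log2 change of -0.33 (FDR 0.00523, edgeR). All 3 sestrin genes were thus lower without overlap, as were 25.1% of all tested genes. The pseudokinase genes of the Tribbles family split in direction. TRIB2 rose from 150 ± 6.55 to 194 ± 5.23 CPM, a log2 change of 0.37 (FDR 0.000196, edgeR), while TRIB1 fell from 14.7 ± 1.08 to 9.51 ± 0.448 CPM, a log2 change of -0.62 (FDR 0.000731, edgeR). PPP1R15B, which encodes the constitutive counterpart of GADD34, was at 91.4, 96.0 and 94.0 CPM in siControl and at 91.4, 92.1 and 92.7 CPM in siMETTL3 (log2 fold change -0.03, edgeR FDR 0.742). Neither of the eIF2 phosphatase targeting subunits was therefore called, and the sign of PPP1R15B turned with an offset for intron length (0.051). JDP2, a relative of ATF3, was not called (-0.13, edgeR FDR 0.559). CEBPD, a relative of the uncalled CEBPB, had the lowest fold change of the list, at 0.742, 1.101 and 1.59 CPM in siControl and 0.389, 0.276 and 0.390 CPM in siMETTL3. These values rest on 6 to 24 counts per library and do not overlap (log2 fold change -1.65, edgeR FDR 0.00984). The call was lost without siMETTL3 replicate 2 (edgeR FDR 0.0517).

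**Figure D3:**
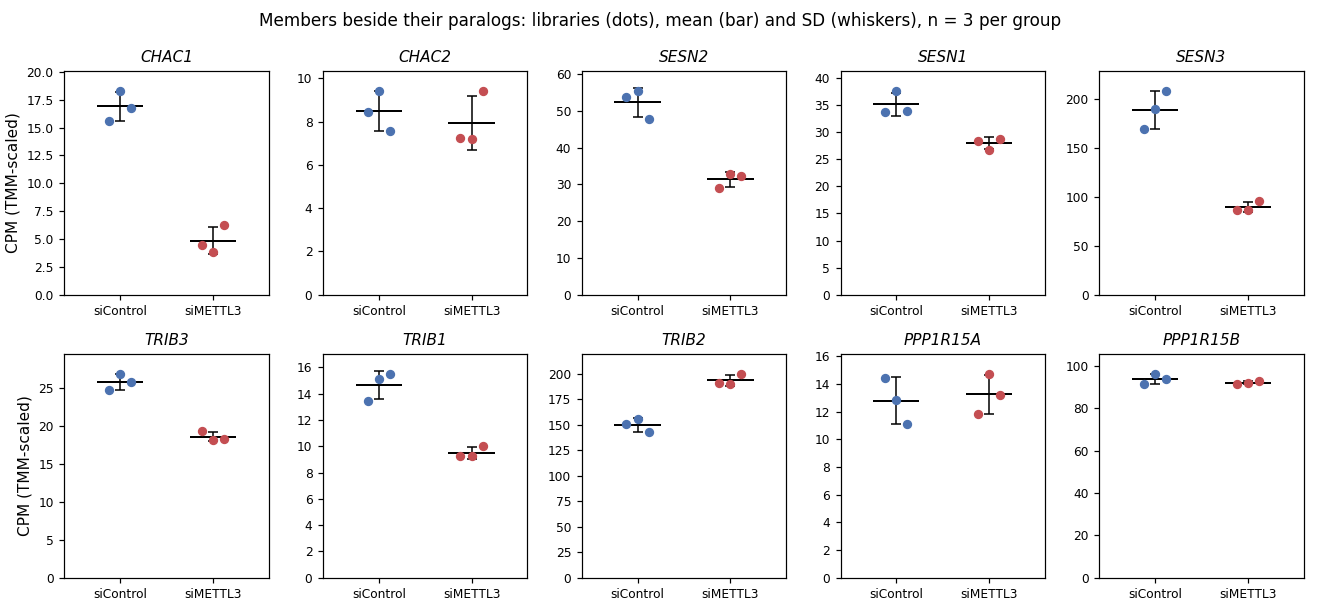
CPM in each library (dots) of CHAC1, SESN2, TRIB3 and PPP1R15A beside their paralogs, with the mean (bar) and SD (whiskers) of 3 libraries per group, on linear axes from 0. CHAC1 separates by group where CHAC2 overlaps, all 3 sestrins are lower in siMETTL3, and TRIB2 is higher where TRIB3 and TRIB1 are lower.

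Upstream of ATF4, 5 of 10 genes for eIF2 alpha kinases and their regulators were lower and 0 were higher, with a median log2 fold change of -0.15. No gene of this list was higher with DESeq2 or limma-voom either, or at an unadjusted p under 0.05 (0 in each). Of the kinases themselves, EIF2AK1 (HRI, which responds to heme and mitochondrial stress) fell from 180, 193 and 198 CPM to 153, 156 and 159 CPM, a log2 change of -0.29 (FDR 0.00130, edgeR). EIF2AK2 (PKR, activated by double-stranded RNA) had a log2 fold change of 0.08 (edgeR FDR 0.305), EIF2AK3 (PERK, the sensor in the endoplasmic reticulum) of -0.02 (0.931) and EIF2AK4 (GCN2, the sensor of uncharged tRNA) of -0.07 (0.379). None of these 3 was called. The other genes that fell were the PKR activator PRKRA (-0.37), the GCN2 activator GCN1 (-0.29), and OMA1 (-0.31) and DELE1 (-0.23), the protease and the messenger that relay mitochondrial stress to HRI. All 5 changes were smaller than that of any member that fell. The list also holds 2 genes for inhibitors of these kinases, IMPACT and DNAJC3, at -0.02 and -0.04 and not called. Without them 5 of 8 were lower (62.5%, beside 19.2% of all tested genes), with a median of -0.26. Among 13 genes of eIF2, eIF2B, the eIF2 alpha phosphatase and the separate initiation factor EIF2A, 4 were lower, 1 was higher and the median was -0.11. Without EIF2A, 3 of 12 were lower. EIF2S3, the gamma subunit of eIF2, fell by 0.47 on the log2 scale, EIF2A by 0.44, EIF2B4 by 0.44 and the phosphatase subunit PPP1CA by 0.31. EIF2B3 rose by 0.22 (edgeR FDR 0.0136), a call that was lost without siMETTL3 replicate 1 or 2 and with an offset for intron length. EIF2S1, which encodes the phosphorylated alpha subunit, was not called (-0.11, edgeR FDR 0.189).

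Of 19 listed bZIP partners and relatives, 18 could be tested. Of these, 6 were lower (33.3%, beside 19.2% of all tested genes) and 2 higher (11.1%, beside 18.6%). The median log2 fold change was -0.10. CEBPG, a partner of ATF4 on amino acid response genes, fell from 48.8, 53.7 and 57.2 CPM to 42.7, 43.96 and 43.3 CPM, a log2 change of -0.29 (FDR 0.00597, edgeR). JUN, an AP-1 subunit and partner of ATF3, fell from 36.3 ± 3.14 to 20.2 ± 0.378 CPM, a log2 change of -0.85 (FDR 7.37e-06, edgeR). FOSB, an immediate early AP-1 subunit, fell from 3.72 ± 0.691 to 0.665 ± 0.323 CPM, and the value of -2.46 on the log2 scale was the lowest fold change of all 15311 tested genes (edgeR FDR 8.20e-05). BATF3 rose from 3.14 ± 0.186 to 7.22 ± 1.41 CPM, a log2 change of 1.1978 (FDR 0.000217, edgeR).

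Of 36 listed ATF4 targets of amino acid supply and stress, 35 had a row and 33 were tested. Of these, 23 were lower (69.7%, beside 19.2% of all tested genes) and 1 was higher (3.03%, beside 18.6%). The median log2 fold change was -0.42. ASNS, which encodes asparagine synthetase, fell from 146, 164 and 169 CPM to 77.2, 77.2 and 79.7 CPM, a log2 change of -1.03 (FDR 8.56e-08, edgeR). PHGDH, which opens serine synthesis, fell by 0.90 on the log2 scale, and SLC7A11, the cystine transporter of system xc-, had a log2 fold change of -1.1977. MARS1 fell by 0.69. The 1 target called higher was SLC7A5, the large neutral amino acid transporter, which rose from 115.5 ± 11.02 to 139 ± 7.46 CPM. Its log2 change was 0.27 (FDR 0.00939, edgeR), a call that was lost without siMETTL3 replicate 1 or 2. EIF4EBP1 and SLC7A1 also had log2 fold changes above 0 (0.13 and 0.10) and were not called. The list was written with earlier results of these data known, so its count describes these genes and is no independent evidence of direction. Of the genes whose promoter letters are shown above, AARS1 and GARS1 fell (-0.43 and -0.34), and SLC1A5 was not called (-0.07, edgeR FDR 0.362).

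Of 7 cell death genes listed as linked to CHOP, 4 were lower (57.1%, beside 19.2% of all tested genes) and 0 higher (beside 18.6%). The count of higher genes was also 0 with DESeq2, with limma-voom and at an unadjusted p under 0.05. The median log2 fold change was -0.27. The list is not split by whether CHOP raises or lowers a gene, and BCL2 opposes cell death, so the count does not measure CHOP output. BBC3, which encodes the BH3-only protein PUMA, fell from 21.1, 23.0 and 19.8 CPM to 7.92, 10.3 and 9.54 CPM, a log2 change of -1.2024 (FDR 5.19e-06, edgeR). PMAIP1 (NOXA) fell by 0.76 and TNFRSF10B (the death receptor DR5) by 0.64 on the log2 scale. These 3 genes are also known targets of p53, and the part of either factor was not tested. BCL2 fell by 0.27 (edgeR FDR 0.0267), which was lost without any one of the siMETTL3 replicates (edgeR FDR up to 0.0920). BCL2L11 and ERO1A were not called (-0.08 and -0.07).

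The other arms of the unfolded protein response had shares of called genes near the background. Of 22 genes of the IRE1 and ATF6 arms, 4 were lower (18.2%, beside 19.2% of all tested genes) and 3 were higher (13.6%, beside 18.6%), with a median log2 fold change of -0.09. XBP1, the transcription factor activated by IRE1, fell from 85.8, 101.1 and 100.6 CPM to 69.2, 70.6 and 71.6 CPM, a log2 change of -0.44 (FDR 0.000269, edgeR). SYVN1, an E3 ligase of protein quality control, fell by 0.42, ATF6 rose by 0.36 and CREB3L2 by 0.22, the last no longer called under the intron length offset (FDR 0.0589). HSPA5, the chaperone BiP, was at 291, 310 and 312 CPM in siControl and at 285, 278 and 278 CPM in siMETTL3 (log2 fold change -0.12, edgeR FDR 0.104). It was called lower without siControl replicate 1 (-0.15, edgeR FDR 0.0379) and higher under the intron length offset (0.15, FDR 0.0324), so its direction depends on the setting. Of 16 genes that act on mTORC1 with SESN2 or DDIT4, 3 were lower, 4 higher and the median was 0.04. By the same rule, 19.2% of all tested genes were lower and 18.6% higher, so these counts alone do not set the list apart. TSC2, the DDIT4 effector, had a log2 fold change of -0.25 (edgeR FDR 0.0110) and SEC13 of GATOR2 one of 0.23 (0.0133). NPRL2 was at -0.39 and MIOS at -0.21. Each of these 4 calls was lost in at least 1 fit that left out a library.

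**Figure D4:**
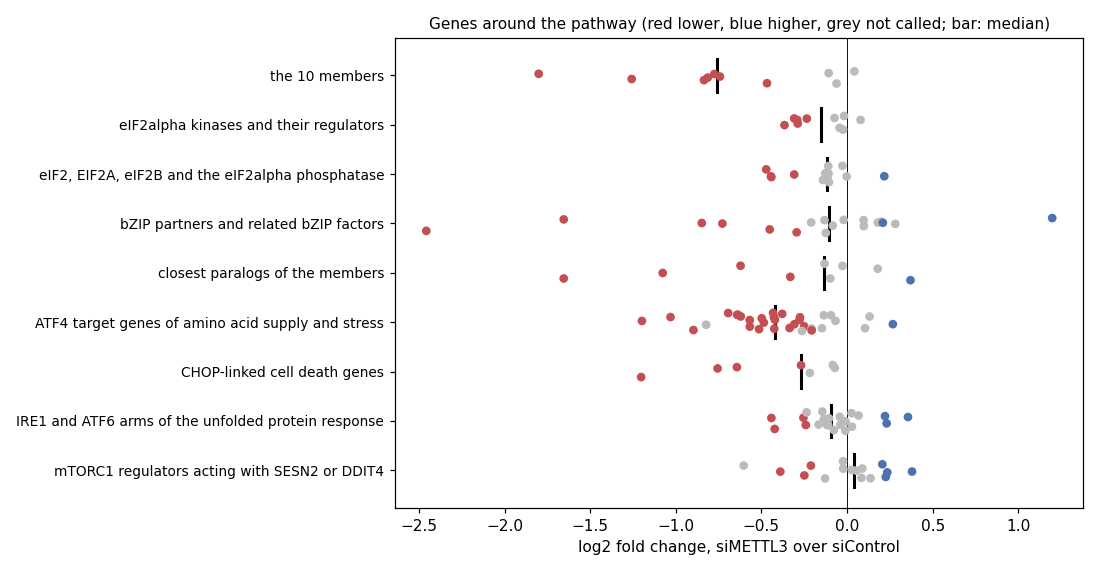
Log2 fold change of each tested gene (dots) of the members and of 8 lists around the pathway, with the median of each list (black bar); red dots were called lower, blue dots higher and grey dots were not called. The members (median -0.76) and the ATF4 targets of amino acid supply (median -0.42) lie farthest to the left, and the mTORC1 list is centred near 0 (median 0.04).

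Over the 6 libraries, the genes most like ATF4 by Pearson's correlation of log2 CPM, among 11754 genes that are not members and have an average log2 CPM of at least 3, were NOTCH3, PFKM, SLC9B2, SLC23A1 and TMEM33, with r from 0.998 to 0.999. They are given as a description without a p, since the 6 points share their libraries and fall into the groups: 16.2% of the compared genes had an r above 0.9. NOTCH3 went from 34.1 to 17.4 CPM and TMEM33 from 174 to 101.1 CPM on average. The call of SLC23A1 (log2 fold change -0.25, edgeR FDR 0.0181) was lost in 3 fits that left out a library, with an FDR up to 0.0669 without siMETTL3 replicate 1. Of the members, ATF3 (0.991), CHAC1 (0.988) and TRIB3 (0.983) were most like ATF4, and PPP1R15A (-0.21), CEBPB (0.26) and ATF5 (0.32) least.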

How the data were processed

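Each library has 1 deposited table of raw read counts. The authors counted reads with featureCounts v1.5.3, per the file headers, over whole gene spans of a GENCODE release 33 annotation, introns included, counting a read for every gene it overlaps and setting no strand option. FastQC 0.11.5, Trimmomatic 0.36 and HISAT2 2.1.0 are named in the submitters' processing notes. The names of the counted alignments, per the file headers, contain the word picard; whether duplicate reads were removed before counting is not given in the sources used here. The tables pair symbols with spans and span lengths on GRCh38; of 18999 spans compared, 18998 overlapped their namesake in GENCODE release 44. The span length in bases is the length column deposited by the authors.

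Here, genes passing filterByExpr (15311) were scaled by TMM and fitted over all genes with edgeR 4.0.16 in R 4.3.3 (glmQLFit and glmQLFTest, robust, no covariate); FDR is the Benjamini-Hochberg value over all tested genes, with a threshold of 0.05. CPM values were computed from the counts and TMM-scaled library sizes and are given as mean ± SD. SE is the absolute log2 fold change over the square root of F. Total counts of 15430000 to 21565013 set the precision. Counts of 84 or more lay behind every value of a member before any share of an overlapping gene was subtracted. Alternatives were run with edgeR, DESeq2 1.42.0 and limma 3.58.1. The ratios were tested with SciPy 1.17.1.

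The members and lists were chosen with earlier results of these data known. Named genes are the members and METTL3; EIF2AK1, EIF2AK2, EIF2AK3, EIF2AK4, PPP1R15B, CEBPG, ASNS, XBP1 and HSPA5; up to 4 called genes of each list, taken by smallest FDR; the 5 genes most like ATF4; and genes overlapping a member. Other genes named from the lists or motif matches (CEBPD, CHAC2, JDP2, IMPACT, DNAJC3, DELE1, EIF2S1, EIF2B3, SLC7A5, BCL2L11, ERO1A, AARS1, GARS1, SLC1A5) were chosen after their values were seen. One marker gene is not reported here.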

Additional observations from a re-analysis of the deposited data

How the results depend on the processing

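In all 18 alternative fits (11 planned, 6 that left out 1 library, and 1 added after the data had been seen), the 7 members that fell and METTL3 kept their direction and their side of the threshold, and the other 3 members stayed uncalled. Leaving out each library in turn, ATF5 ranged from -0.26 to 0.0285, PPP1R15A from -0.0455 to 0.14 and CEBPB from -0.15 to 0.0079, with a change of sign; with the intron length offset ATF5 was at 0.0074 and CEBPB at 0.21. EIF2AK3 ranged from -0.12 to 0.072 and BCL2L11 from -0.1644 to 0.0591 with a library left out, and EIF2AK3 was at 0.0056 with total counts; with the intron length offset, HSPA5 was at 0.15 and PPP1R15B at 0.051. The cause was not tested. With overlapping genes removed, 1899 genes were lower and 1854 higher in all, because only 9520 were tested, and the counts of lower genes were 2 for the eIF2 alpha kinases, 2 for eIF2 and eIF2B, and 1 for the mTORC1 list, which had 2 higher. With the intron length offset, eIF2 and eIF2B had 0 higher, the IRE1 and ATF6 arms 2 lower and the mTORC1 list 1 higher. With a library left out, the higher counts ran from 0 to 1 for eIF2 and eIF2B, from 1 to 3 for the bZIP list, from 0 to 3 for the ATF4 targets and from 0 to 3 for the mTORC1 list; the lower counts ran from 2 to 6 for the IRE1 and ATF6 arms and from 1 to 4 for the mTORC1 list. For 59 other named genes, 1037 alternative values were computed, of which 33 were weaker, 1 stronger and 7 of the opposite sign. Shared replicate numbers were not taken as a pairing: deviations from the group means correlated at 0.040, 0.049 and 0.067 for same-numbered libraries and every library correlated best with its own number, a hint from the data and not the design. With the replicate number as a block, ATF4 was at -0.84, CHAC1 at -1.82 and METTL3 at -0.71, and no call of a member changed.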
